A study of Mus musculus with 12 samples.

Results

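The genes described here are 10 nuclear genes for subunits of respiratory complexes II and III: the complex II subunits Sdha, Sdhb, Sdhc and Sdhd, and the complex III subunits Uqcrc1, Uqcrc2, Cyc1, Uqcrfs1, Uqcrh and Uqcrq. They were taken by gene symbol, as all probe sets listed with exactly one of these symbols, which gave 20 of the 45037 probe sets and 10 of the 18193 genes on the arrays. The study measured total RNA of C57BL/6 mice on Affymetrix Murine 430 2.0 arrays, 12 in all, in 4 groups of 3: PGC1beta mutant liver, control liver, PGC1beta mutant quadriceps muscle and control quadriceps muscle. PGC1beta, the product of Ppargc1b, is a transcriptional coactivator, and the series title calls the mutant allele hypomorphic, so that some function is retained. The labels give no age, sex or diet, do not say how the allele was made, describe the other genotype as control in the titles and as wild type or control in the design text, and do not say that the 3 arrays of a group came from separate mice. The p-values therefore measure the spread between these arrays, which may be partly technical. Every array was of whole tissue, where fewer cells of a type and less RNA per cell cannot be told apart.

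Complex II, succinate dehydrogenase, sits in the inner mitochondrial membrane, oxidises succinate to fumarate as a step of the citric acid cycle, and passes the electrons to coenzyme Q. Complex III takes electrons from reduced coenzyme Q, hands them to cytochrome c, and pumps protons as it does so. All complex II subunits are encoded in the nucleus, as are all complex III subunits but cytochrome b, and PGC-1 coactivators are known to drive such genes through oestrogen-related receptors and nuclear respiratory factors.

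Levels are probe set intensity on a linear scale, quantile normalised among the 6 arrays of a tissue, and a difference is the mutant mean minus the control mean of log2(intensity + 16), an offset that understates the changes of dim genes. The probe set with the highest mean stood for a gene. A gene was called where limma's adjusted p (Benjamini-Hochberg, over all genes tested) was under 0.05. Array medians before normalisation were 27.2 to 40.1 in liver and 20.1 to 22.3 in muscle. The liver arrays expressed the hepatocyte markers and the muscle arrays the fibre markers: 6 fibre markers summed to 75940 to 77360 in mutant muscle and 76020 to 77470 in control muscle, against 65.6 to 134.1 over the liver arrays. The Ppargc1b probe set read 402.4, 491.5 and 201.8 in mutant livers, against 544.3, 281.9 and 479.2 in control livers, and 422.8, 280.1 and 270.9 in mutant muscles, against 302.0, 284.2 and 331.6 in control muscles. These values overlap in both tissues, and neither difference passed the test (liver -0.28, SE 0.32, adjusted p = 0.692, and muscle 0.06, SE 0.17, adjusted p = 0.998). Where this probe set lies relative to the altered part of the gene was not stated in the labels, and it does not check the genotype labels.

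In quadriceps muscle all 10 genes had a lower mean in mutants than in controls, by 0.14 to 0.47 on the log2 scale, and none passed the test. In 8 of the 10 every mutant array lay below every control array, where 5.22% of all 13131 genes tested in muscle did so. The median difference of the 10 genes was -0.30, against a median of -0.00 over all genes, of which 49.9% were above 0. At an unadjusted p under 0.05 stood 8 of the 10 genes and 4.26% of all genes. Only 2 of all genes tested in this tissue, 0.0152%, were called, both of them higher in mutants.

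Among the complex II genes in muscle, Sdhb, which encodes the iron-sulfur subunit, read 3150, 3032 and 2836 in mutants, against 3949, 4137 and 3884 in controls. The highest mutant array lay well under the lowest control array, and the difference of -0.41 (SE 0.07) had a p that ranked 4 among the 13131 genes, with an adjusted p of 0.581. Sdha, the flavoprotein that oxidises succinate, read 3311, 3093 and 2726 in mutants, against 3328, 3791 and 3640 in controls. Its groups met almost edge to edge, and the difference was -0.24 (SE 0.09, adjusted p = 0.994). A second bright Sdha probe set read 2937, 2372 and 2150 in mutants, against 2527, 3139 and 2774 in controls. These groups overlapped, and the difference was -0.18 (95% interval -0.45 to 0.09). Sdhc and Sdhd encode the membrane anchors that hold a haem and form the coenzyme Q site. Sdhd read 1990, 1835 and 2091 in mutants, against 2385, 2543 and 2455 in controls, a difference of -0.32 (SE 0.08, adjusted p = 0.994) without overlap. Sdhc read 1579, 1547 and 1179 in mutants, against 1648, 1935 and 1476 in controls. Its lowest control lay among the mutants, and the difference of -0.23 had a 95% interval from -0.53 to 0.07.

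Among the complex III genes in muscle, Cyc1 and Uqcrc2 had the lowest differences. Cyc1, cytochrome c1, which hands electrons to cytochrome c, read 2198, 1997 and 1999 in mutants, against 2465, 3424 and 2800 in controls. The controls were spread more widely than the mutants but stayed above all of them, and the difference was -0.47 (SE 0.11, adjusted p = 0.994). Uqcrc2, a core protein on the matrix side, read 2042, 1979 and 2064 in mutants, against 2553, 2654 and 2678 in controls. Both groups were tight, the difference was -0.37 (SE 0.07), and its p ranked 6 with an adjusted p of 0.975. Uqcrc1, the other core protein, read 3949, 4249 and 3769 in mutants, against 5131, 4798 and 4854 in controls, a difference of -0.31 without overlap.

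The Rieske iron-sulfur protein and the small subunits also had lower means in mutant muscle. Uqcrfs1, the Rieske protein that takes electrons from reduced coenzyme Q, read 2150, 2626 and 2600 in mutants, against 2896, 3132 and 3061 in controls, a difference of -0.30 without overlap. Uqcrq, a small membrane subunit, read 1663, 1751 and 1687 in mutants, against 1912, 2122 and 2150 in controls, a difference of -0.27 without overlap. Uqcrh, the acidic hinge protein that lies by cytochrome c1, read 2170, 2660 and 3096 in mutants, against 2886, 2836 and 2951 in controls. Mutant 3 lay above all of its controls, and the difference of -0.14 had an interval from -0.40 to 0.11. The adjusted p of each of these 3 genes and of Uqcrc1 was 0.994. The second Uqcrh probe set gave -0.29, while the dimmer second probe sets of Sdhc and Sdhd gave 0.21 and 0.07.

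Left out in turn, no muscle array changed the sign of any of the 10 differences, and their median then ranged from -0.33 to -0.29. The summed level of 6 slow or oxidative fibre markers, mostly Myh2, was 4861, 7169 and 532.5 in mutant muscles 1 to 3, against 2905, 2930 and 1874 in control muscles, and 0 of the 5 of them that were tested were called. The medians of the 10 genes relative to their control means were -0.33, -0.22 and -0.37 in mutants 1 to 3, against -0.04, 0.05 and 0.01 in controls. The part of fibre type in these levels was not tested.

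**Figure D1:**
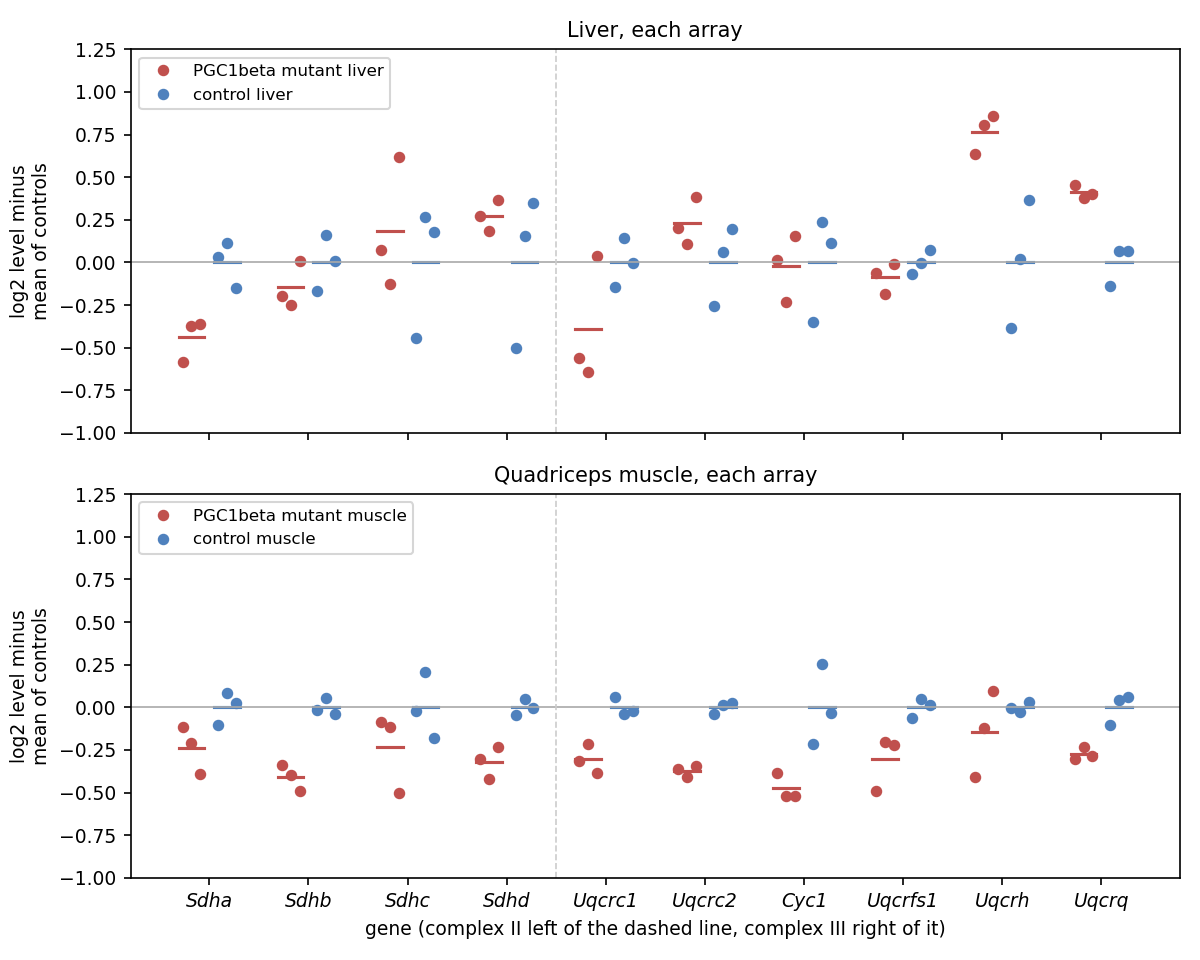
Level of each of the 10 genes on every array, as log2 level minus the mean of the controls of the same tissue, in liver (upper panel) and quadriceps muscle (lower panel). Points are arrays (red mutant, blue control) and short bars group means; in muscle all 10 mutant means lie below 0, and in liver Uqcrh and Uqcrq lie above it and Sdha below it without overlap.

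In liver the 10 genes lay on both sides of control: 2 complex III genes, Uqcrh and Uqcrq, rose in mutants, the other 8 did not pass the test, and 5 of the 10 means were above and 5 below control. On the values as deposited and on median-centred values the 2 calls stood, but 8 means were above and 2 below control. The background in liver was wide: 310 of 13327 genes, 2.33%, rose and 137, 1.03%, fell. The median difference of the 10 genes was 0.08, against 0.01 over all genes, of which 51.2% were above 0. Groups did not overlap, with mutants higher, in 2 of the 10 genes and 13% of all genes, and with mutants lower in 1 of the 10 and 11% of all genes.

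Uqcrh read 4487, 5052 and 5241 in mutant livers, against 2202, 2921 and 3730 in control livers. Control 1 was the lowest and control 3 the highest of a wide control group, and still every mutant lay above it. The difference was 0.77 (1.70-fold, SE 0.17, adjusted p = 0.0376). The second Uqcrh probe set read 3940, 3712 and 3959 in mutants, against 1780, 2500 and 2283 in controls. It also separated the groups and gave 0.83, with an adjusted p of 0.0254 over the 27022 probe sets tested, of which 2.05% were called. Uqcrq read 5381, 5099 and 5188 in mutants, against 3568, 4113 and 4111 in controls. The mutants lay close together and above all controls, with a difference of 0.41 (1.33-fold, SE 0.10, adjusted p = 0.0458). The other 3 Uqcrq probe sets were dim, at most 66.5 on any liver array. The 2 of them tested in liver gave -0.24 and 0.07.

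Both calls were close to the threshold. Leaving out any 1 of the 6 liver arrays ended the Uqcrq call (adjusted p from 0.0524 to 0.188), and leaving out any but control 3 ended the Uqcrh call (adjusted p from 0.0492 without control 3 to 0.135), while the differences stayed at 0.34 to 0.45 and 0.57 to 0.95. RNA quality differed among the liver arrays. It was read as the 3′ over 5′ signal of 3 control transcripts (Actb, Gapdh and Pcx, mean of the log2 ratios), which is higher in more degraded RNA. This ratio was 1.90, 0.90 and 1.87 in mutant livers, against 0.74, 0.97 and 0.50 in control livers. Mutants 1 and 3 thus lay above all controls. Mutant 2, whose ratio lay among the controls, had 5052 for Uqcrh and 5099 for Uqcrq, both above every control. With this ratio as a covariate neither gene passed (0.91, adjusted p = 0.416 for Uqcrh, and 0.37, adjusted p = 0.600 for Uqcrq). Macrophage and Kupffer cell markers summed to 1877 to 2434 in mutant livers and 1189 to 1641 in control livers, with 2 of 6, Lyz2 and Tyrobp, called higher. The markers did not all move alike: Csf1r overlapped, at 507.4, 563.2 and 733.3 in mutants, against 704.3, 651.7 and 523.8 in controls. None of the 6 was at 0. Hepatocyte markers summed to 50250 to 53770 in mutant livers and 56240 to 57740 in control livers, with 1 of 6, Tat, called lower. The part of these cell types in the subunit levels was not tested.

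Sdha stood opposite to these in mutant livers. It read 2138, 2478 and 2502 in mutants, against 3287, 3484 and 2897 in controls. Every mutant lay below every control, yet the difference of -0.44 (SE 0.12) had an adjusted p of 0.0662. The second bright Sdha probe set read 1961, 3080 and 2706 in mutants, against 4004, 4093 and 3683 in controls, a difference of -0.62 without overlap (adjusted p = 0.0706 over probe sets). In a fit of all 12 arrays Sdha passed the test in liver with an adjusted p of 0.0224. The difference shrank to -0.23 on the values as deposited (adjusted p = 0.526) and on median-centred values (0.412), and to -0.15 as the mean of all Sdha probe sets, 2 of them dim (0.666).

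The other complex II genes in liver had overlapping groups by the probe sets that stood for them. Sdhb read 4296, 4138 and 4943 in mutants, against 4368, 5506 and 4943 in controls (-0.14, interval -0.40 to 0.11). Sdhc read 2015, 1753 and 2945 in mutants, against 1406, 2310 and 2168 in controls (0.19, interval -0.30 to 0.67). Sdhd read 3755, 3530 and 4019 in mutants, against 2188, 3460 and 3971 in controls (0.27, interval -0.14 to 0.69). For Sdhd, control 1 alone lay far below the mutants, and control 3 lay among them. The dimmer second Sdhd probe set read 448.7, 364.0 and 521.6 in mutants, against 263.1, 298.9 and 311.9 in controls. Its groups did not overlap, with a difference of 0.57 (adjusted p = 0.117 over probe sets). The second Sdhc probe set gave 0.05 (adjusted p = 0.914 over probe sets).

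The remaining complex III genes in liver overlapped as well by the probe sets that stood for them. Uqcrc1 read 2734, 2578 and 4153 in mutants, against 3654, 4469 and 4035 in controls, a difference of -0.39 (adjusted p = 0.239). Mutants 1 and 2 lay below all controls and mutant 3 lay between them. Uqcrc2 read 2435, 2277 and 2769 in mutants, against 1772, 2202 and 2424 in controls, a difference of 0.23 (adjusted p = 0.402). Its second probe set read 2233, 2108 and 2422 in mutants, against 1639, 1842 and 1638 in controls. These groups did not overlap, with a difference of 0.40 (adjusted p = 0.105 over probe sets). The 2 core proteins, partners in 1 complex, thus had differences of opposite sign, neither of which passed. Uqcrfs1 read 2753, 2526 and 2859 in mutants, against 2742, 2864 and 3015 in controls (-0.08, interval -0.31 to 0.14). Cyc1 read 3886, 3272 and 4284 in mutants, against 3008, 4534 and 4163 in controls (-0.02, interval -0.37 to 0.33). For both genes the mutant arrays lay within or across the control range.

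**Figure D2:**
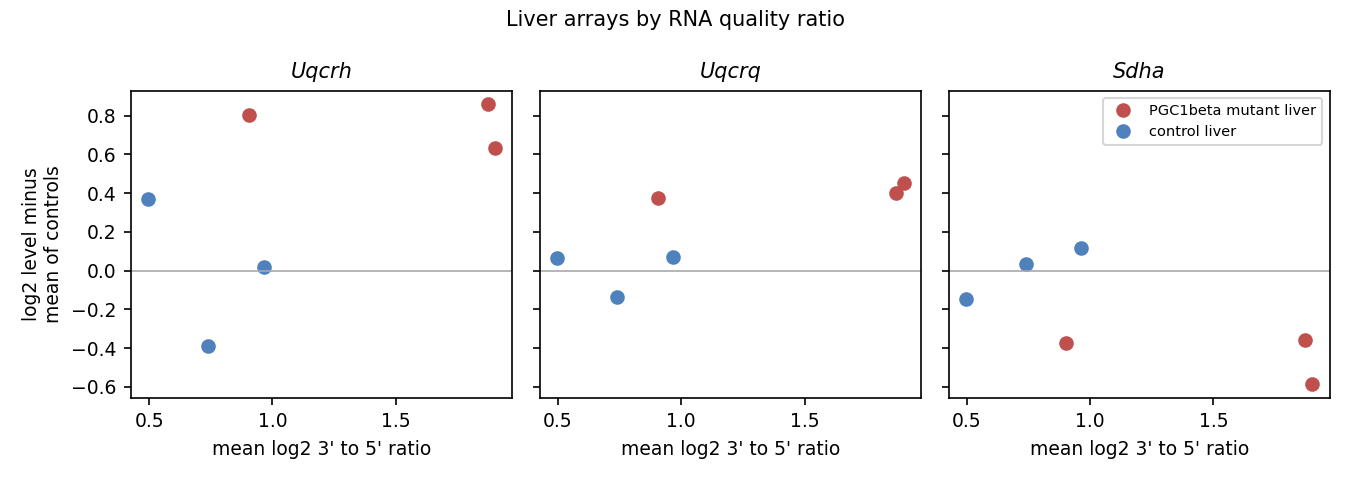
Log2 level minus the control mean for Uqcrh, Uqcrq and Sdha (vertical axes) against the mean log2 3′ to 5′ ratio (horizontal axes), 1 point per liver array, red mutant and blue control. Mutants 1 and 3 have ratios of 1.90 and 1.87, and mutant 2, at 0.90, has levels near those of the other mutants.

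The PGC-1 coactivators act through factors that bind promoters, so the promoter windows of the genes were read for the cores of these factors. RefSeq windows (GRCm38.p6, 250 bases before to 50 after the start) matched 6 of the 10 genes: Sdha, Sdhb, Sdhd, Uqcrc1, Uqcrfs1 and Uqcrh. Those of Sdha, Sdhd and Uqcrh are shown, since Sdha and Uqcrh lay on opposite sides of control in mutant liver and Sdhd held matches to the most motifs. The 250 bases before the start are given 5′ to 3′ on the gene's strand, with matches in capitals.
Sdha (chr13:74350241-74350490, minus strand): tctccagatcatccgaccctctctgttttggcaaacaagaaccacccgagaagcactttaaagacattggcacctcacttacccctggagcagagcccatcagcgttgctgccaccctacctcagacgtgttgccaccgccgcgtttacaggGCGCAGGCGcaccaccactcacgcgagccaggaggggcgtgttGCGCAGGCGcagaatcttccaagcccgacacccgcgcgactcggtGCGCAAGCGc
Sdhd (chr9:50603850-50604099, minus strand): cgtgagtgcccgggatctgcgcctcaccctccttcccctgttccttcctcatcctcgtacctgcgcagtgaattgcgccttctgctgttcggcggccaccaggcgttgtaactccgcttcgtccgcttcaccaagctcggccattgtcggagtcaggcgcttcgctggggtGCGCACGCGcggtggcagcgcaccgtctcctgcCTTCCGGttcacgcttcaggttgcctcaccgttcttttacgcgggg
Uqcrh (chr4:116075071-116075320, minus strand): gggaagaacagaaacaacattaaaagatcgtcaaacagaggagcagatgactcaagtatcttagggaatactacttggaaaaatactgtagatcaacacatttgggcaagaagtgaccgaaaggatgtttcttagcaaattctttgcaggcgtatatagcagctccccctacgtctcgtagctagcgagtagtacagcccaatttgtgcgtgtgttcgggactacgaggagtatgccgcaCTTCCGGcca
The capitals are GCGCANGCG, the core bound by nuclear respiratory factor 1 (NRF1), in Sdha and at the first place in Sdhd, and CCGGAAG, bound by the GABP factor and here on the opposite strand, at the other place in Sdhd and in Uqcrh. Both strands of the whole 300-base windows were searched. GCGCANGCG lay in 3 of the 6 windows (Sdha 3 times, Sdhd, and Uqcrc1 after its start) and in 6.25% of 32851 windows in the table. CCGGAAG lay in 3 of the 6 (Sdhb after its start, Sdhd and Uqcrh) and in 8.86% of all. TNAAGGTCA, the oestrogen-related receptor element, lay in 1 of the 6, after the start of Sdhd, and in 1.28% of all, and the YY1 core AANATGGC in 0 of the 6 and 6.05% of all. No match overlapped one of another motif, except that 2 matches of GCGCANGCG in Uqcrc1 overlapped on opposite strands. A match describes these letters only.

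The mutant-minus-control difference was set against itself in the 2 tissues with an interaction term. It was higher in liver than in muscle for 8 of the 10 genes (10 of 10 on the values as deposited), with a median of 0.44, against 0.03 over all 11842 genes tested, of which 52.3% were above 0. That median was 0.24 without liver control 1, 0.19 with the 3′ to 5′ signal as covariate and 0.20 without liver mutants 1 and 3. Uqcrq was the 1 gene called (0.69, SE 0.13, adjusted p = 0.0226), where 1.42% of all genes were. Its differences were 0.41 in liver and -0.27 in muscle. Uqcrh gave 0.91 (SE 0.23, adjusted p = 0.0619), Uqcrc2 0.60 (SE 0.16, adjusted p = 0.0830) and Sdhd 0.59 (SE 0.23, adjusted p = 0.215). Sdha and Uqcrc1, which lay under control in both tissues, gave -0.20 and -0.08, with intervals that held 0. Fitted by probe set, where 0.81% of 23095 were called, the second Uqcrh probe set (1.12, adjusted p = 0.0106), the second Uqcrc2 probe set (0.66, adjusted p = 0.0483) and the bright Uqcrq probe set (0.69, adjusted p = 0.0275) passed. The Uqcrq call was lost without liver mutant 1 (adjusted p = 0.0748), muscle mutant 1 (0.0534), muscle mutant 2 (0.0538), muscle control 2 (0.0645) or muscle control 3 (0.0576), and with the 3′ to 5′ signal as covariate (0.65, adjusted p = 0.228). Uqcrh passed without liver control 3 (adjusted p = 0.0313) and Uqcrc2 without liver mutant 2 (0.0448).

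**Figure D3:**
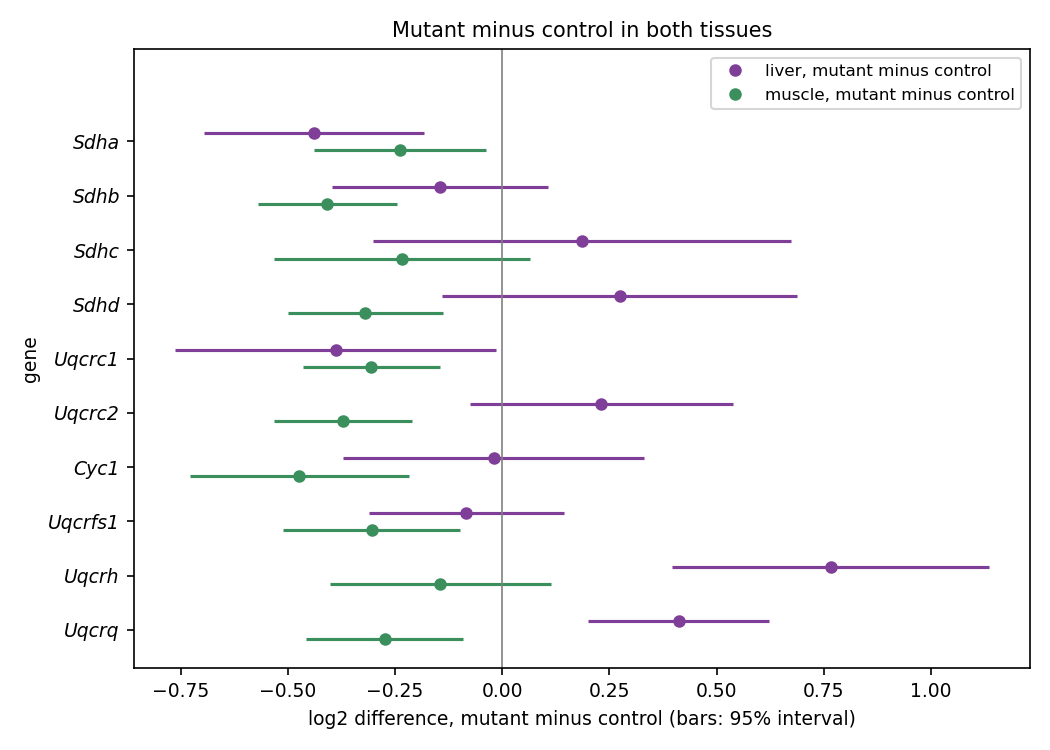
Difference between mutant and control (log2, horizontal axis) for each of the 10 genes, in liver (purple) and muscle (green), with 95% intervals of single genes. The muscle points lie between -0.47 and -0.14 and the liver points between -0.44 and 0.77.

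Between the tissues of control mice, with all 12 arrays normalised together, 9 of the 10 genes were lower in liver than in muscle, where 29.8% of 13477 genes were. Uqcrc2 read 1315, 1609 and 1770 in control livers, against 3523, 3658 and 3685 in control muscles, far apart in every array (-1.21, SE 0.11, adjusted p = 1.09e-07). Next in size were Uqcrc1 at -1.20, Sdha at -1.06, Uqcrfs1 at -0.98 and Uqcrh at -0.91. Sdhc (-0.70), Sdhb (-0.61), Sdhd (-0.59) and Cyc1 (-0.51) followed, and the 95% intervals of all neighbours in this order overlapped. Uqcrq did not pass: it read 2586, 2955 and 2952 in control livers, against 2643, 2960 and 2994 in control muscles (-0.02, interval -0.21 to 0.17). The size of these differences depends on the common scale. On the values as deposited, where the median of all genes was 0.50 and 6158 genes were called higher and 2152 lower in liver (3677 and 4019 on the common scale), the median of the 10 genes was 0.00, Uqcrq was 0.79 and 5 of the 10 lay below 0. Relative to the median of all genes the median of the 10 genes was lower in liver on each scale, by 0.80 on the common one and 0.50 as deposited or median-centred, while Uqcrq lay above the median of all genes on the last 2. As deposited, 3 of the 10 were called, Uqcrc1 and Uqcrc2 lower and Uqcrq higher in liver. Median-centred, Sdhb, Sdhc, Sdhd and Cyc1 no longer passed, and Uqcrq was called higher in liver (0.36, adjusted p = 0.0235). The Cyc1 call was also lost without control liver 1 (adjusted p = 0.0519) or control muscle 2 (0.0542). The dimmer second probe sets of Sdhc and Sdhd gave 0.42 and 0.53, against the sign of the bright ones. Their adjusted p over probe sets were 0.204 and 0.0252, so the second Sdhd probe set passed as higher in liver. As the mean of all probe sets neither gene passed (Sdhc -0.14, adjusted p = 0.541, and Sdhd -0.03, adjusted p = 0.876).

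**Figure D4:**
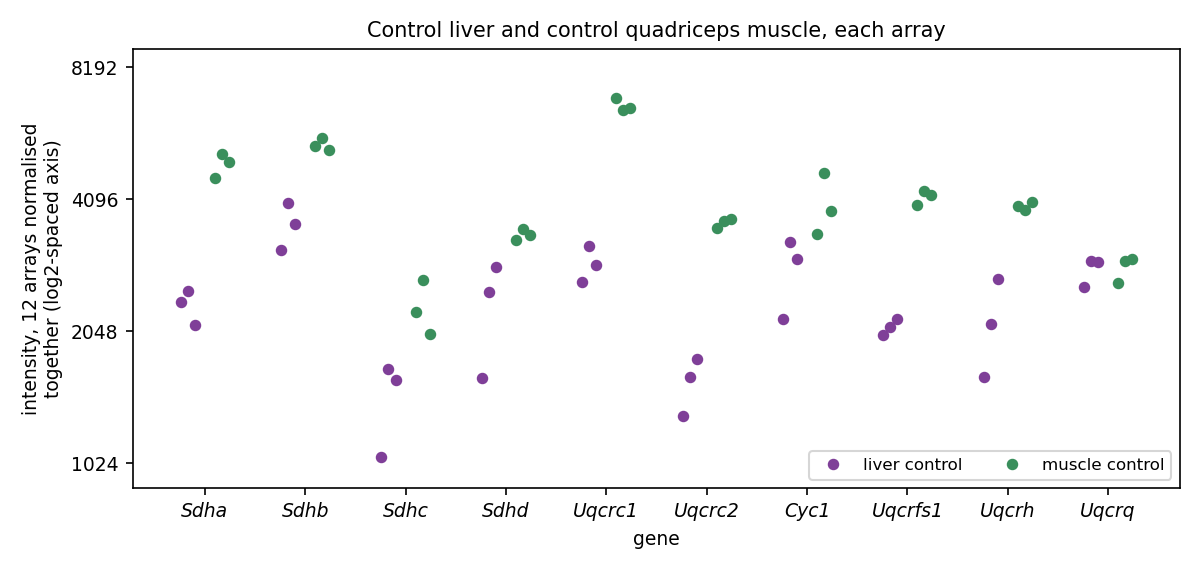
Intensity of the 10 genes on the 3 control liver arrays (purple) and 3 control muscle arrays (green), after all 12 arrays were normalised together, on a log2-spaced axis. The groups are apart for 9 genes and overlap for Uqcrq, and levels of different genes cannot be compared, since each is from its own probe set.

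Over the 12 arrays on that scale, the profiles of the genes were set against each other after each was centred on its own mean, by the root mean square distance in log2. The closest pairs were Uqcrc2 with Uqcrfs1 (0.150) and Sdhb with Cyc1 (0.155), 1 of which joins the complexes, and the farthest was Uqcrc1 with Uqcrq (0.855). To the mean profile of the 10, Sdhb was closest of the members (0.115) and Uqcrq the farthest (0.486). Outside them the closest were Ndufa1, a complex I subunit (0.108), Gatd3a (0.111), Prdx3, a mitochondrial peroxidase (0.115), Kdm1a, a histone demethylase (0.117), and Tmem11, an inner membrane protein (0.117), where the median of all 18193 genes was 0.517. These distances describe 12 arrays of only 4 groups, 2 of each tissue.

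Of the other complex III subunits, 3 of the 4 listed were on the arrays. In mutant muscle 0 of 3 had a mean above control, as did 0 of the 10 genes, with a median of -0.26. In mutant liver 3 of 3 had a mean above control, with a median of 0.37. There the 10 genes lay 5 above and 5 below, with a median of 0.08, and 51.2% of all genes were above 0. None of the 3 was called in either tissue. Uqcr10, a small subunit, read 2731, 2586 and 2847 in mutant livers, against 1441, 2290 and 1928 in control livers (0.55, adjusted p = 0.0850). In muscle it read 1932, 1996 and 1814 in mutants, against 2339, 2346 and 2198 in controls (-0.26, adjusted p = 0.994). Its groups were apart in both tissues and in opposite order, and the difference between tissues was called (0.81, SE 0.19, adjusted p = 0.0460). Leaving out any array but liver mutant 2 and liver control 2 ended that call, at adjusted p of 0.0567 (without liver control 1) to 0.115 (without liver mutant 1). An offset of 1 (0.0566), no filter (0.0852), the values as deposited (0.0510) and median centring (0.0682) ended it too. So did no variance trend (0.155) and the mean of all probe sets (0.0607). The call stood in 5 of 24 alternatives. Uqcr11, another small subunit, gave 0.37 in liver and -0.33 in muscle.

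Genes that assemble the 2 complexes had higher means in mutant liver, with 1 of each list called. Of all genes tested in liver, 51.2% had higher means in mutants and 2.33% were called higher. Of 5 complex III assembly genes tested, all 5 had higher means and 1 was called, with a median of 0.39, against -0.11 in muscle. Uqcc2, an assembly factor of cytochrome b, rose in mutant liver: 1413, 1462 and 1060 in mutants, against 603.5, 551.5 and 499.1 in controls. The groups were far apart (1.22, 2.32-fold, SE 0.16, adjusted p = 0.0181), and in muscle they overlapped (-0.02, adjusted p = 0.999). The difference between tissues was called (1.23, SE 0.17, adjusted p = 0.00808). As the mean of all probe sets Uqcc2 lost both calls, at 0.79 in liver (adjusted p = 0.0616) and 0.86 between tissues (0.0571). With no variance trend the difference between tissues had an adjusted p of 0.0729. Of 4 complex II assembly genes, all 4 had higher means in mutant liver and 1 was called, with a median of 0.49, against -0.04 in muscle. Sdhaf4, which helps the flavoprotein Sdha join Sdhb, rose in liver: 1180, 1250 and 929.8 in mutants, against 703.8, 637.3 and 678.8 in controls (0.71, 1.64-fold, SE 0.15, adjusted p = 0.0319). Sdha itself had a difference of -0.44 in these livers.

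Genes around coenzyme Q and cytochrome c were mixed. Of 12 coenzyme Q synthesis genes, 6 had higher means in mutant liver and 1 in mutant muscle, with medians of 0.04 and -0.11. Coq2, which joins the side chain to the ring, rose in liver, with 868.4, 725.9 and 738.5 in mutants, against 416.1, 433.2 and 489.3 in controls (0.78, 1.72-fold, SE 0.14, adjusted p = 0.0242). The Sdhaf4, Uqcc2 and Coq2 calls were all lost with the 3′ to 5′ signal as covariate, where the differences were 0.91, 1.35 and 0.72 with adjusted p of 0.361, 0.301 and 0.449. With no variance trend all 3 were lost as well (0.142, 0.105 and 0.112). The mean of all probe sets ended the Sdhaf4 call (0.0511). Without liver mutant 1, adjusted p were 0.155, 0.115 and 0.134. Without mutant 3, control 1, control 2 or control 3, Sdhaf4 had 0.0520, 0.0893, 0.0922 and 0.0797 and Coq2 0.0600, 0.0852, 0.0744 and 0.0589. Without mutant 2 Sdhaf4 had 0.0504, and without control 2 Uqcc2 had 0.0502. Of 7 other enzymes that feed electrons to coenzyme Q, 0 were called in either tissue and the medians were -0.35 in liver and -0.07 in muscle. Gpd2, mitochondrial glycerol-3-phosphate dehydrogenase, was dim in liver and read 71.8, 160.2 and 109.1 in mutants, against 248.4, 213.7 and 182.8 in controls (-0.88, adjusted p = 0.0800). Cycs, cytochrome c itself, gave 0.23 in liver and -0.24 in muscle, neither called.

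The rest of the chain was summarised as counts. In mutant muscle 0 of 32 complex I subunits, 1 of 12 complex IV subunits and 0 of 16 ATP synthase subunits had a mean above control, with medians of -0.20, -0.14 and -0.16 and no calls, against -0.30 for the 10 genes of complexes II and III. In mutant liver 6 of 33 complex I, 2 of 12 complex IV and 4 of 16 ATP synthase subunits rose and none fell. Among all genes 2.33% rose and 1.03% fell. The list medians were 0.30, 0.24 and 0.33, against 0.08 for complexes II and III. Within the 10 genes the liver medians were 0.02 for complex II and 0.11 for complex III, and the muscle medians -0.28 and -0.30. With the 3′ to 5′ signal as covariate 0 genes were called higher in liver, and with no variance trend 0 genes were called. The liver median of the 10 genes was 0.30 on the values as deposited and 0.29 on median-centred values. The list medians were not computed on those scales. Of 13 further citric acid cycle enzymes 1, Ogdh, fell in mutant liver and 0 rose, with medians of -0.22 in liver and -0.16 in muscle. These lists share arrays with the 10 genes, and a difference between lists was not tested.

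**Figure D5:**
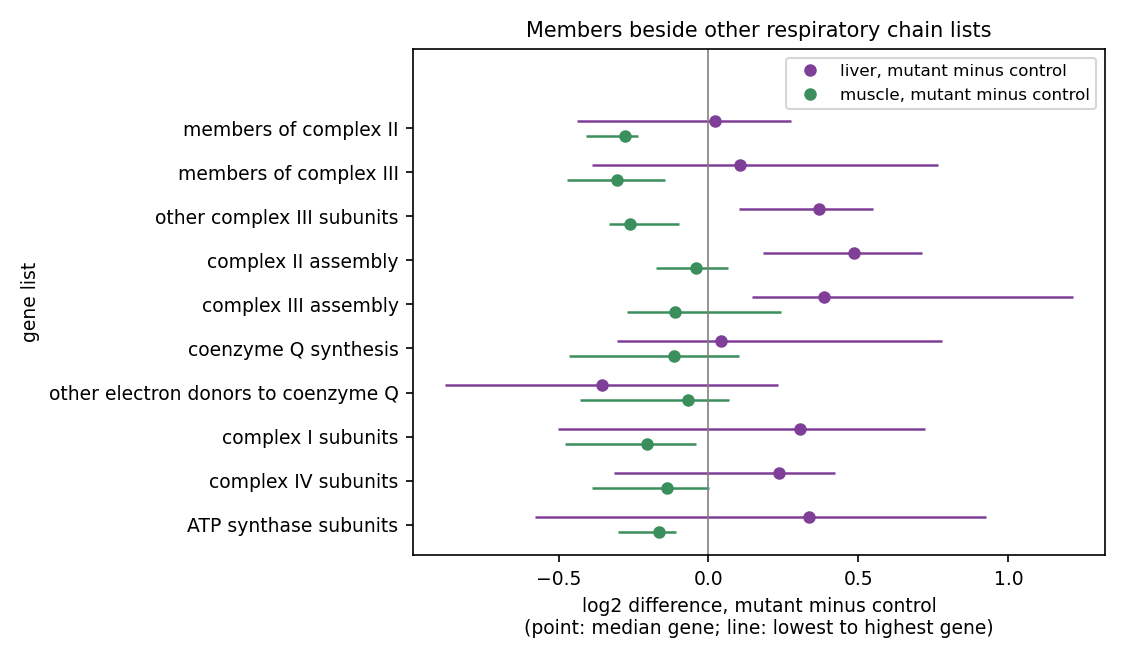
Median (point) and lowest to highest (line) difference between mutant and control, in log2, for the genes of complexes II and III and the lists of related genes, in liver (purple) and muscle (green). In muscle every median lies below 0, from -0.30 to -0.04, and in liver the medians of complex II (0.02) and complex III (0.11) lie under those of complex I, complex IV and ATP synthase (0.24 to 0.33).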

How the data were processed

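Total RNA of liver and quadriceps muscle was hybridised to 12 Affymetrix Murine 430 2.0 arrays, and the probe set intensity deposited by the authors, 1 column per array, was the start. The algorithm and build are not named by the labels; d-Chip is named for clustering only, per the design text. Of 45101 probe sets 64 controls were left out. A single symbol was listed for 34945, and 34741 were checked through gene identifiers. Values were taken as log2(value + 16) and quantile normalised within tissue (all 12 arrays for liver against muscle). Genes with a mean above the 40th percentile were tested with limma 3.58.1 (lmFit, eBayes with trend), adjusted over all genes tested, with an interaction term for the difference between tissues. The procedure was tested on simulated data. The genes, lists and markers were chosen with earlier results of these data known. Genes named from a list are those called, or else those with the smallest p, and for the long lists of complexes I, IV, ATP synthase and the citric acid cycle counts are given. Alternatives covered the offset, the filter, the normalisation, the variance trend, the choice of probe set, array weights, the replicate number, the fit of all arrays, the 3′ to 5′ ratio and each array left out. The number of arrays limits the precision, and a probe set that cross-hybridises would mix transcripts. Samples were grouped by title, and every column was mapped.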

Additional observations from a re-analysis of the deposited data

Results flagged for a closer look

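Each of these was picked out because the mutant-minus-control difference was not the same in liver and muscle by the interaction test, adjusted over all genes or all probe sets tested. Uqcrq gave 0.69 (the same value for its bright probe set fitted alone), the second Uqcrh probe set 1.12, the second Uqcrc2 probe set 0.66, Uqcr10 0.81 and Uqcc2 1.23 (log2, liver minus muscle). The 3′ to 5′ ratio was higher in mutant livers 1 and 3 than on all other arrays. Its part in these differences was not tested beyond a covariate fit and a fit without those arrays. With the covariate the differences were 0.65 for Uqcrq (adjusted p = 0.228), 0.70 for Uqcr10 (0.444) and 1.35 for Uqcc2 (0.0642). Without liver mutants 1 and 3 they were 0.65 for Uqcrq and 0.74 for Uqcr10.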

How the results depend on the processing

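Muscle was the same in all 18 alternatives: 0 of the 10 genes called and 10 of 10 below control. In liver the number called, 2, became 0 with no filter, no variance trend, the replicate block (adjusted p = 0.0578 for Uqcrh and 0.103 for Uqcrq; it also ended the Sdhaf4 call, at 0.0743, and the Coq2 call, at 0.0652, and the Uqcr10 call between tissues, at 0.0558), the 3′ to 5′ covariate, or without liver mutants 1 and 3 together, and 1 with the mean of all probe sets; with 1 array left out it was 0 to 1, with 4 to 6 below 0. In a fit of all 12 arrays it was 3. Genes below 0 in liver became 2 as deposited or median-centred. For the difference between tissues, 1 called became 2 with an offset of 64, a filter at the 60th percentile, the mean of probe sets, array weights or the replicate block, 0 with no filter, no variance trend, the covariate or without liver mutants 1 and 3, and 0 to 2 with 1 array left out. With the mean of probe sets the 2 were Uqcrh (1.02, adjusted p = 0.0319) and Uqcrc2 (0.63, adjusted p = 0.0439). Uqcrq itself did not pass there (-0.089, adjusted p = 0.878). Genes below 0 in the difference between tissues became 0 as deposited, 1 median-centred and 1 to 2 with 1 array left out. Between tissues, 3 were called and 5 below 0 as deposited. By probe set, 1 called in liver became 2 with an offset of 64.

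Signs turned as follows. As deposited, liver differences became 0.13 (Sdhb), 0.13 (Uqcrfs1) and 0.23 (Cyc1), and median-centred 0.12, 0.13 and 0.23; differences between responses became 0.0027 (Sdha) and 0.14 (Uqcrc1) as deposited, and 0.12 (Uqcrc1) median-centred; liver against muscle became 0.15 (Sdhb), 0.13 (Sdhc), 0.22 (Sdhd), 0.79 (Uqcrq), 0.28 (Cyc1) and a median of 0.00055 as deposited, and 0.36 (Uqcrq) median-centred. With the mean of probe sets, which averages in dim ones, the liver median became -0.052, Uqcrq -0.13 in liver, -0.089 for the difference and 0.36 between tissues, and Gpd2 -0.057 in muscle. With the covariate the liver median became -0.17, Sdhc -0.16, Uqcr11 -0.034 and Ppargc1b 0.43 (0.36 for the difference). Without liver mutants 1 and 3 these were -0.16 for the median, -0.13 for Sdhc and 0.22 (0.16) for Ppargc1b. With 1 array left out, ranges were -0.076 to 0.19 (liver median), -0.20 to 0.099 (Cyc1), -0.035 to 0.34 (Sdhc) and -0.55 to 0.081 (Ppargc1b) in liver, -0.057 to 0.0043 (Uqcc2), -0.018 to 0.25 (Coq2) and -0.14 to 0.17 (Ppargc1b) in muscle, -0.30 to 0.045 (Uqcrc1) and -0.61 to 0.025 (Ppargc1b) for the difference, and -0.075 to 0.045 (Uqcrq) between tissues. The cause of each of these shifts was not tested beyond what its setting removes. The number of genes called in liver, 447, was 0 with no variance trend, 11 with the block, 2 with the covariate, 0 without liver mutants 1 and 3, 171 with the mean of probe sets, 222 with no filter, 297 as deposited, 997 in a fit of all arrays and 0 to 739 with 1 array left out. For the difference, 168 was 0 with no variance trend, 1 with the covariate, 10 without liver mutants 1 and 3, 57 as deposited, 58 with no filter or median-centred, 85 with the mean of probe sets, 102 with the block and 12 to 393 with 1 array left out.

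Deviations of same-numbered mutant and control arrays from their group means correlated at -0.01, -0.11 and -0.03 in liver and 0.03, 0.09 and 0.20 in muscle. With 3 arrays a group these values cannot show whether equal numbers mark shared pairs. Liver and muscle arrays of the same number were not compared. With 3 arrays a group and calls near the threshold, the liver calls depended on the settings named above, while the median muscle difference stayed between -0.33 and -0.26.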
